A study of Mus musculus with 2 samples.

Results

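The genes described here store cellular iron or sense it, and they are 8 of 21536 protein-coding mouse genes whose position and strand were known. They were chosen by name: the ferritin chains Fth1 and Ftl1, the ferritin receptor Ncoa4, the iron regulatory proteins Aco1 and Ireb2, the iron sensor Fbxl5 and the iron chaperones Pcbp1 and Pcbp2. Histone H3 trimethylated at lysine 4 (H3K4me3), a chromatin mark of gene starts that are in use or ready for use, was mapped by ChIP-seq in MEL cells, an immortalised line of mouse erythroid leukaemia. The study has 1 group of 2 biological replicates, both exposed to 2% dimethyl sulphoxide (DMSO), a textbook inducer of erythroid maturation in these cells, for 5 days. No untreated cells were analysed here, and no value below is a response to DMSO.

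Ferritin is a hollow shell of heavy and light chains that holds iron as a mineral. The heavy chain oxidises ferrous iron, the light chain helps the mineral form, and Ncoa4 takes ferritin to the lysosome, which frees the iron. When iron is scarce, Aco1 and Ireb2 bind a hairpin in messenger RNAs, the iron-responsive element. Bound near the 5' end of ferritin mRNA they block its translation, and bound in the 3' untranslated region of the transferrin receptor mRNA they stabilise it. Fbxl5, a subunit of a ubiquitin ligase that carries iron itself, directs the breakdown of Ireb2 when iron is plentiful. Maturing erythroid cells send most of their iron to haem, and NCOA4 has been reported to supply ferritin iron for that purpose in cultured erythroid cells. None of these steps was measured here, since H3K4me3 reports on chromatin at gene starts and not on mRNA or protein.

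Promoters of Fth1, Ftl1, Ncoa4 and Aco1 are shown first. Each line holds the 100 bases before a start of transcription, from RefSeq's promoter table on GRCm38.p6, the assembly behind mm10. Capitals mark motifs found on either strand. The first is the GC box with the letters GGGCGG, to which factors of the Sp family bind. The next is the CCAAT box, which is bound by the trimeric factor NF-Y. The TATA box was searched as TATAA, and the core of the antioxidant response element, through which Nrf2 acts on ferritin genes, as TGACNNNGC. The site of erythroid and other GATA factors was searched as AGATAA. Where matches overlapped, all their bases are in capitals.
Fth1 at its second listed start (chr19:9982546-9982645, + strand): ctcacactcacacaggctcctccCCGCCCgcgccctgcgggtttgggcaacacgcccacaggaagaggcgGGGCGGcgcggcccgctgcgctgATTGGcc
Ftl1 (chr7:45459887-45459986, - strand): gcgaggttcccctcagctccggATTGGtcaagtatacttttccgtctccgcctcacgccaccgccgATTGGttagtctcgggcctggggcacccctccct
Ncoa4 at its first start (chr14:32159787-32159886, + strand): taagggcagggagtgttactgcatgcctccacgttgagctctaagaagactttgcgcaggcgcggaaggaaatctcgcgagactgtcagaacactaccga
Ncoa4 at its last listed start (chr14:32165689-32165788, + strand): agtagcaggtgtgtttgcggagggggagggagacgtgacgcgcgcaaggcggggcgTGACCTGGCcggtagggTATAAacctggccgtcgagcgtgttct
Aco1 (chr4:40143165-40143264, + strand): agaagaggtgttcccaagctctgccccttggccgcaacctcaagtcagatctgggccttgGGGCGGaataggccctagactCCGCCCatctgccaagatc
The Fth1 line holds 2 GC boxes and 1 CCAAT box, and the Ftl1 line holds 2 CCAAT boxes and no GC box. Aco1 has 2 GC boxes. The first Ncoa4 start has none of the 5 motifs, whereas its last start has TATAA and TGACNNNGC. AGATAA was in none of the lines. Of the promoters not shown, those of Pcbp2 held 2 GC boxes at the first listed start and 8, some overlapping, at the second. The others not shown, which include those of Ireb2 and Pcbp1, held none of the 5 motifs. Over all 32851 listed promoters of mouse genes, 24.7% held a GC box in the same 100 bases, 18.9% a CCAAT box, 10.2% TATAA, 4.82% TGACNNNGC and 3.59% AGATAA. Over the 11085 promoters of marked protein-coding genes the shares were 46.7%, 23.0%, 4.20%, 5.95% and 1.83% in the same order. A match is a match of letters and was not tested as a binding site. CpG over the 300 bases of the table was compared with the level the base composition predicts. The ratio was 0.827 at the second Fth1 start, 0.673 at Ftl1 and 0.470 at Aco1. The median over promoters of marked genes was 0.773. Ireb2, Pcbp1 and both Pcbp2 starts lay above that median, at 0.962, 1.06, 0.927 and 0.845. The Ncoa4 starts, in order, were at 0.625, 0.636 and 0.878, and the first Fth1 start was at 0.405.

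A second set of sequences shows the element through which the iron regulatory proteins act on ferritin. A search of the 5' untranslated regions of coding transcripts in GENCODE M1 (build NCBIM37) for an unpaired C, 5 paired positions and the loop CAGTG with any base but G after it found the element in 6 of 18712 genes. The lower stem had to pair at 4 of 6 positions, a limit lowered from 5 after the known Fth1 element had been missed. Capitals mark the unpaired C and the loop of 6 bases.
Fth1 (chr19:10057222-10057250, + strand): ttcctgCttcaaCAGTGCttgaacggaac
Ftl1 (chr7:52715149-52715177, - strand): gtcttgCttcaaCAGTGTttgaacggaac
The elements of the ferritin chains share 26 of 29 bases. Both lie in exon 1 under a peak of the older deposited peak set on mm9. The replicate peaks on mm10 did not cover both. At Ftl1 the element spans bases 78 to 106 of a transcript that starts 2 bp after the listed start. No replicate peak lay there. The 239 bp after the listed start were uncovered in replicate 1, and 247 bp in replicate 2. At Fth1 the element was under a peak in replicate 2 and only partly so in replicate 1. The other matches were Slc40a1, Alas2, the ferritin light chain copy Gm10116 and Ppp1r1b, and with 5 pairs required 4 genes were left. Epas1, Tfrc, Slc11a2 and Cdc14a, treated below as genes whose transcripts carry an element, were not found by this search of 5' regions. The 6 genes are therefore not a full list of genes with an element.

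At the chromatin level, 7 of the 8 genes were marked, meaning that a peak of each replicate lay within 1000 bp of the outer 5' end of the gene. The same rule marked 47.1% of all protein-coding genes. Fth1 was the exception: its outer 5' end in RefSeq lies 2046 bp upstream of a second listed start, and the peaks lie at the second. When any start listed in the promoter table could qualify, a rule added after the data were seen, all 8 genes were marked against a background of 48.8%. With peaks anywhere over the gene or within 1000 bp of it, 8 of 8 had a peak of both replicates, beside 57.9% of all genes.

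The strength of a peak is given here by the signal value in column 7 of the authors' peak lists, called the enrichment value, whose scale is not stated. The 7 genes marked at the outer 5' end had a median enrichment value of 13.7, and all 10133 marked genes had a median of 13.2. Their median domain width, the length of a run of peaks joined across gaps of up to 1000 bp, was 2829.5 bp, against 2258 bp for all marked genes. Of the 7, 5 lay above the median of all marked genes in enrichment value and 5 in width. By mean enrichment value Fbxl5 was highest, at 22.6, followed by Pcbp1 and Ncoa4 at 20.2 each, and Ireb2 was lowest, at 11.4. No gene differed more than 2-fold between replicates, as 4.49% of all marked genes did. At listed starts the replicates of Fth1, Ncoa4, Aco1, Ireb2 and Pcbp2 differed 1.59-fold to 1.74-fold, and those of Ftl1, Fbxl5 and Pcbp1 differed 1.12-fold to 1.15-fold. Across marked genes, log2 of replicate 1 over replicate 2 varied with an SD of 0.47 around a median of -0.16. In the order of means at listed starts, namely Fbxl5, Pcbp1, Ncoa4, Ireb2, Fth1, Aco1, Pcbp2 and Ftl1, neighbours lay closer than the larger of their SDs except for Fbxl5 and Pcbp1. That pair was 2.35 apart, with SDs of 2.18 and 1.79, and the replicates of the pair overlapped.

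**Figure D1:**
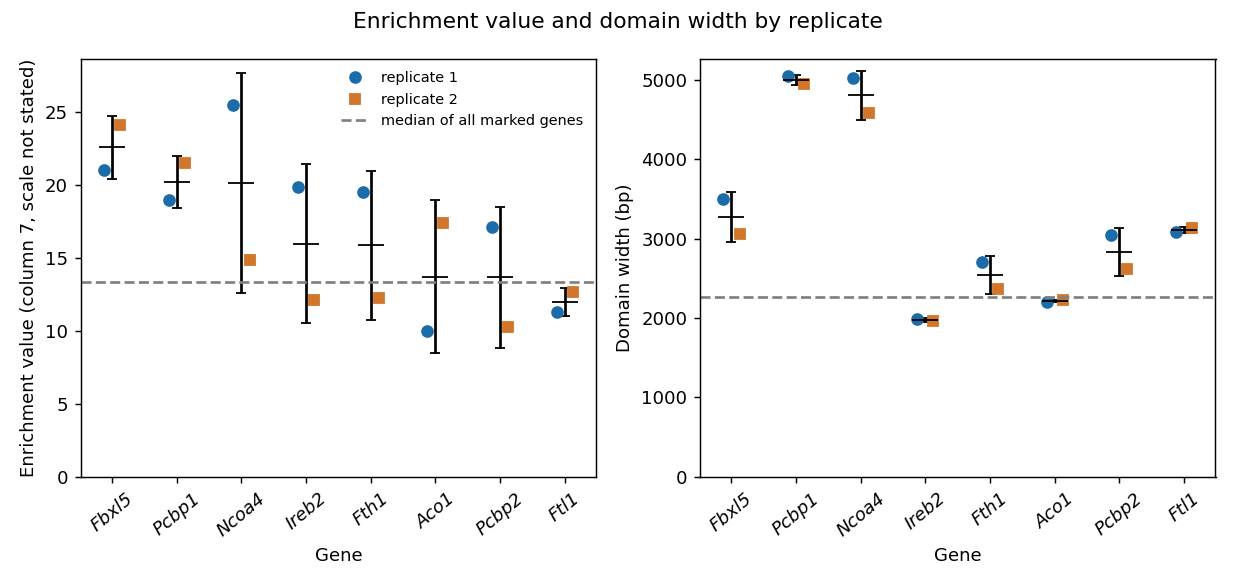
Enrichment value (left, column 7 of the authors' lists, scale not stated) and domain width in bp (right) of each gene at any listed start. Points are the replicates, dashes and bars the mean ± SD (n = 2), and the dashed line is the median of all genes marked by the same rule. In enrichment value Fbxl5, Pcbp1 and Ncoa4 lie above the line in both replicates and Ftl1 below it, and the replicates of Ncoa4, Ireb2, Fth1, Aco1 and Pcbp2 differ by 1.59-fold to 1.74-fold. In width Ireb2 and Aco1 lie below the line and the others above it. The width of Ncoa4 is that of its domain inside the gene.

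Fth1 encodes the ferritin heavy chain, the subunit with ferroxidase activity (gene 14319, chromosome 19, 9980600 to 9985111, + strand). At its second listed start, position 9982646, it had enrichment values of 19.5 in replicate 1 and 12.3 in replicate 2 (15.9 ± 5.10, SD, n = 2). The domain there was 2710 bp wide in replicate 1 and 2367 bp in replicate 2. It consisted of a weaker upstream peak, with values of 8.50 and 8.58, and the strong downstream peak. The replicates agreed closely on the upstream peak and differed 1.59-fold on the downstream one. At the first listed start neither replicate had a peak within 1000 bp. The sequence of the second start matched NCBIM37 at a single place, 57 bp upstream of the start of the coding transcript in GENCODE M1. The sequence of the first start matched 2103 bp upstream of that transcript, and its 300 bases were 36.7% G and C, against 67.0% at the second start.

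Ftl1 encodes the ferritin light chain (gene 14325, chromosome 7, 45457944 to 45459886, - strand). Its enrichment values were 11.3 in replicate 1 and 12.7 in replicate 2 (12.0 ± 0.969, SD, n = 2), below the median of all marked genes in both. The domain was wide for that value, at 3080 and 3131 bp, and ranked 2309 of 10133 in width but 6493 in value. Its strong peak lay wholly inside the gene, from 240 to 1632 bp downstream of the start in replicate 1 and from 248 to 1646 bp in replicate 2. The upstream part was made of small peaks with values of 1.88 to 4.31. Peaks covered 71.7% of the gene body in replicate 1 and 72.0% in replicate 2. The ferritin chains therefore did not separate clearly: Fth1 had the higher mean value, by less than the spread between its own replicates, and Ftl1 the wider domain.

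Genes most like each ferritin chain were found by distance in log2 mean value and log2 mean width, each scaled by its SD over the marked genes. The nearest to Ftl1 were Trpv2, E2f8 and Kif24, with values of 12.0, 11.9 and 12.1 and widths of 3120, 3120.5 and 3105 bp. The nearest to Fth1 at listed starts were Sec23b, Api5 and Mob4, with values of 15.8, 16.0 and 15.8 and widths of 2536, 2547.5 and 2537.5 bp. These measures summarise 1 mark in 2 samples of 1 cell line.

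Mammalian genomes hold processed copies of the ferritin genes, and the sources used here do not say how reads with several matches were treated. Of 6 RefSeq pseudogenes named as copies of Fth1, Ftl1 or Ncoa4, none had a peak of either replicate over its body. Fth-ps3 on chromosome 8 had 1 peak of each replicate within 1000 bp, outside the copy itself.

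Ncoa4 encodes the autophagy receptor for ferritin (gene 27057, chromosome 14, 32159879 to 32179855, + strand). It had the highest value in any single replicate among the 8 genes, 25.5 in replicate 1, but 14.8 in replicate 2 (20.2 ± 7.54, SD, n = 2), a 1.72-fold difference. Its promoter domain was 2350 and 2481 bp wide. A second block of H3K4me3 lay inside the gene, and it was broader than the first. Its main peak ran from 5043 to 9003 bp downstream of the first start in replicate 1 and from 5065 to 9016 bp in replicate 2, with values of 12.7 and 7.38. With the small peaks behind it, the inner domain was 5019 bp wide in replicate 1 and 4585 bp in replicate 2. Both inner starts in the promoter table, 5707 and 5910 bp downstream of the outer 5' end, were covered by the main inner peak in both replicates. The start at 5910 bp is the one with TATAA in the sequences above. The older peak set on mm9 had the same arrangement, with 1 peak from -542 to 1825 bp around the first transcript start and 1 from 5077 to 9936 bp.

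Aco1 encodes a protein that is cytosolic aconitase when it holds an iron-sulphur cluster and an iron regulatory protein when it does not (gene 11428, chromosome 4, 40143265 to 40199009, + strand). Its values were 10.02 in replicate 1 and 17.4 in replicate 2 (13.7 ± 5.23, SD, n = 2), the largest fold between replicates among the 8 genes, at 1.74, and in the opposite direction to Ncoa4. The authors' lists give 2 peaks there in replicate 1 and 1 peak of 2221 bp in replicate 2. Domain width was nearly the same, 2203 and 2221 bp. Its CpG level relative to base composition, 0.470, was the lowest of the promoters that lay in a domain. In number of CpGs, 14 in the 300 bases, it was level with the first Ncoa4 start.

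Ireb2 encodes the other iron regulatory protein, which is degraded rather than converted when iron is plentiful (gene 64602, chromosome 9, 54862658 to 54912534, + strand). At its outer 5' end the values were 10.7 and 12.1 (11.4 ± 1.02, SD, n = 2). The start in the promoter table lies 1097 bp further downstream and coincides with the start of the GENCODE M1 coding transcript. There the values were 19.8 in replicate 1 and 12.1 in replicate 2 (16.0 ± 5.45, SD, n = 2), since the downstream peak then fell inside the window. The domain was the narrowest of the 8, at 1989 and 1958 bp. The value assigned to Ireb2 therefore depended on which start was used. It was 3.33 when the signal was averaged over the window at the outer 5' end, and the width was 584.5 bp when no gaps were joined. The iron regulatory proteins could not be ordered by enrichment value: their means were 13.7 for Aco1 and 11.4 or 16.0 for Ireb2, within the spread of the replicates.

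Fbxl5 encodes the F-box protein that senses iron and marks Ireb2 for degradation (gene 242960, chromosome 5, 43744618 to 43782149, - strand). It had the highest mean value of the 8 genes, 21.0 in replicate 1 and 24.1 in replicate 2 (22.6 ± 2.18, SD, n = 2), which ranked 138 of 10133 marked genes. The top place was not stable: in the authors' pooled and replicated sets Pcbp1 stood at 22.0 and Fbxl5 at 20.5, and in replicate 1 alone Ncoa4, at 25.5, was above Fbxl5. The domain was 3494 and 3053 bp wide. In replicate 2 the upstream peak, at 23.6, was nearly as strong as the downstream peak, while in replicate 1 the upstream peak was at 13.7. The ends of its domain rested on small peaks that were each in 1 replicate only, downstream in replicate 1 and upstream in replicate 2. Without peaks under a −log10 q of 2 the mean width was 2384.5 bp in place of 3273.5 bp.

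Pcbp1 and Pcbp2 encode RNA-binding proteins that also carry iron to ferritin and other proteins. Pcbp1 has a single exon (gene 23983, chromosome 6, 86524480 to 86526189, - strand), and its values were 19.0 in replicate 1 and 21.5 in replicate 2 (20.2 ± 1.79, SD, n = 2). Its domain was the widest at an outer 5' end among the 8, at 5043 and 4952 bp, and ranked 427 of 10133. Peaks covered 90.9% of the gene in replicate 1 and 97.0% in replicate 2, so for Pcbp1 the mark spanned nearly the whole transcription unit. The domain also held both listed starts of 1600020E01Rik, a long non-coding RNA gene on the opposite strand, 1141 and 1212 bp upstream of the Pcbp1 start. Pcbp2 (gene 18521, chromosome 15, 102470450 to 102500068, + strand) had values of 17.1 in replicate 1 and 10.3 in replicate 2 (13.7 ± 4.84, SD, n = 2) and widths of 3042 and 2617 bp. Its domain held the start of Gm36331, a long non-coding RNA gene on the opposite strand, 43 bp upstream of the first listed Pcbp2 start. In such shared domains the mark cannot be assigned to 1 gene of the pair. Pcbp1 was higher than Pcbp2 in both replicates, by 1.86 and 11.2 units of enrichment value.

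The Pcbp1 and Pcbp2 promoters share a stretch of sequence, which is shown because it lies before the starts of both genes. In Pcbp2 it lay between peaks in both replicates, and in Pcbp1 it was under a peak in replicate 2 and partly so in replicate 1. Capitals mark the 43 of 51 positions at which the genes have the same base.
Pcbp1 (chr6:86526195-86526245, - strand): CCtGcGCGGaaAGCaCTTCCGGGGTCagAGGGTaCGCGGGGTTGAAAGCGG
Pcbp2 (chr15:102470467-102470517, + strand): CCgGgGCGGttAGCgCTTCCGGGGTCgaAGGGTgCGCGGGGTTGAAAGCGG
The stretch runs from 56 to 6 bp before the Pcbp1 start. It runs from 72 to 22 bp before the first listed Pcbp2 start and from 165 to 115 bp before the second. Its longest identical run, 17 bases, was found on the same strand in 3 of the 32851 listed promoters, which are those of Pcbp1 and of both Pcbp2 starts. No other pair of the 7 genes with a promoter sequence shared a run of more than 11 bases. The search was made after the sequences had been seen.

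A recurring feature was that the start of transcription itself lay between peaks. A peak of both replicates covered the outer 5' end of Aco1 alone among the 8 genes, while 20.0% of all protein-coding genes had one. Those were 4311 genes, and all of them fall among the 10133 marked genes, because a covered end meets the rule for marking. The share among marked genes was thus larger than 20.0%. At a listed start, or at the outer 5' end for Fbxl5, which is not matched in the promoter table, 5 of 8 genes had a start in an uncovered stretch with peaks on both sides within the domain in both replicates. These were Fth1, Ftl1, Ncoa4, Ireb2 and Pcbp2. Among all protein-coding genes this was the case for 12.5%, and among the genes marked at a listed start for 25.6%. The count was made after the peaks of these genes had been seen.

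The uncovered stretch was 213 bp long in replicate 1 and 183 bp in replicate 2 at Fth1, and 414 and 399 bp at Ftl1. It was 138 and 86 bp at Ncoa4 and 193 and 191 bp at Ireb2. Pcbp2 had the longest, 518 and 483 bp, and both of its listed starts lay in it. At Fbxl5 and Pcbp1 the start was uncovered in replicate 1, in stretches of 93 and 189 bp, and covered in replicate 2. The promoter sequences printed above for Fth1 and Ftl1 therefore fell wholly in the uncovered stretch, and that of Aco1 wholly under a peak. In the older set on mm9 the peaks spanned the starts of 7 of 8 transcripts, and the Pcbp2 peak began 11 bp after its start. Peak lists give no signal between peaks, so the depth of these dips is not known.

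**Figure D2:**
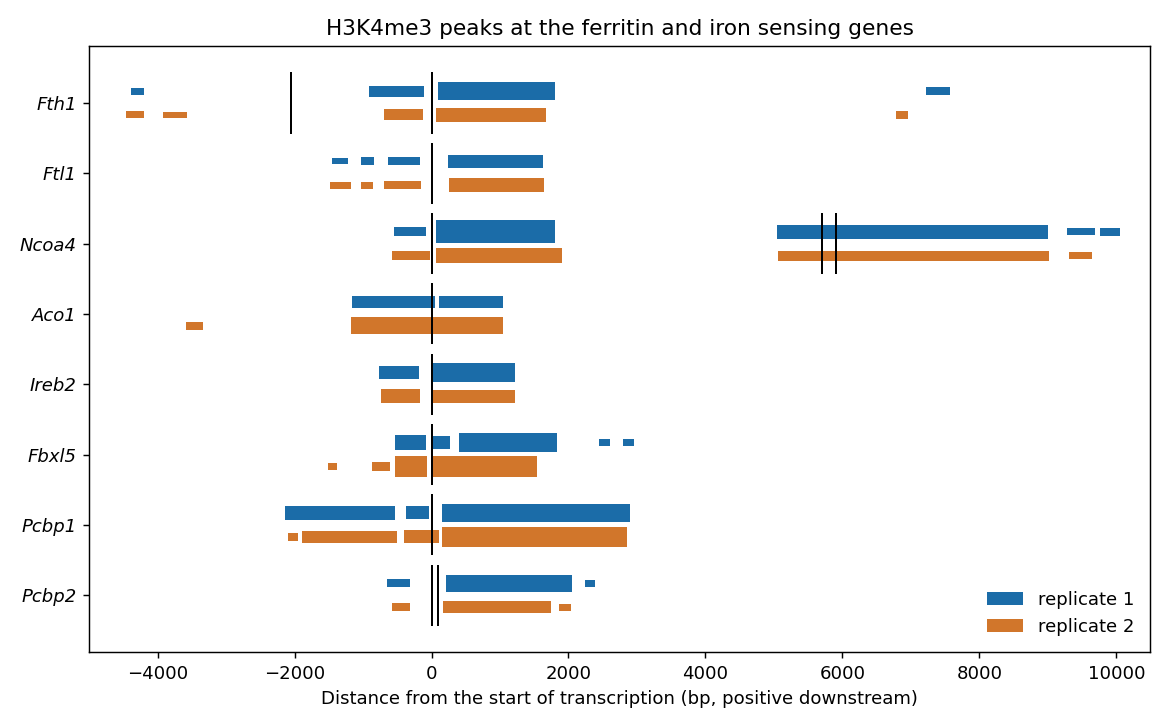
Deposited peaks of replicate 1 (blue) and replicate 2 (orange) at each gene, by distance in bp from the start of transcription, positive downstream. Bar height grows with the enrichment value, and vertical lines are listed starts. Zero is the second listed start of Fth1, the outer 5' end of Fbxl5 and the first listed start of the others. At 5 of the 8 genes the start at zero lies between a short upstream and a long downstream peak in both replicates. Ncoa4 has a second block over its inner starts.

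The mark reached further downstream than upstream of the start in both replicates at 7 of 8 genes, the exception being Aco1. All marked genes for which this could be measured did so in 67.9% of cases. The highest value among peaks centred downstream exceeded that upstream in both replicates at 6 of 8 genes, beside 61.3% of marked genes. Aco1 and Ireb2 were the exceptions. In replicate 2 the Aco1 domain was 1 peak across the start, centred upstream but with its summit 242 bp downstream. No peak centred downstream was there to compare, so in that replicate the exception came from the rule. At Fbxl5 the reach in replicate 2 was nearly even, with 1538 bp downstream and 1514 bp upstream. Since the backgrounds are 67.9% and 61.3%, the lean to the downstream side was common among marked genes.

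Ferritin genes are known to have enhancers upstream of their promoters, so peaks from 1000 to 10000 bp upstream of the outer 5' end were listed. H3K4me3 is a mark of gene starts, and whether any of these peaks is an enhancer was not tested. Both replicates had one at 5 of 8 genes, beside 29.6% of all genes. The upstream peaks of Ftl1 included 1 at the start of Bax, with values of 11.6 in replicate 1 and up to 14.1 in replicate 2. The peak of Aco1 was the outer end of its own promoter peak, and that of Pcbp1 lay at the starts of 1600020E01Rik and Gm38676. Those of Pcbp2 included the near end of a peak at the start of Prr13. Fth1 had a small peak with no other gene start within 1000 bp, from 4388 to 4200 bp upstream of its second listed start in replicate 1 and from 4465 to 4195 bp in replicate 2. Its values were 3.04 and 2.91, far below the 19.5 and 12.3 of the promoter. Ftl1 and Pcbp2 also had small upstream peaks of both replicates with no other gene start within 1000 bp. Those of Ftl1 belonged to its own promoter domain. Those of Pcbp2 would be joined to the peak at Prr13 by the rule of gaps up to 1000 bp. Neither set was therefore separate from a promoter domain.

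The related genes were grouped by role into 3 lists with 28 genes in all, of which 18 were marked at the outer 5' end. Of all protein-coding genes, 47.1% were marked by that rule. Of 10 relatives of the members, 2 were marked, namely Pcbp4 at 18.3 ± 7.38 and Hnrnpk at 14.0 ± 6.37 (SD, n = 2 each). The mitochondrial ferritin Ftmt, the X-linked ferritin relatives Fthl17a to Fthl17f and Pcbp3 had no mark. Thus among ferritin genes, Fth1 and Ftl1 had the mark at a listed start and the 7 relatives did not.

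All 12 partner genes were marked, beside 47.1% of all protein-coding genes. Their median enrichment value was 13.8, near the 13.2 of all marked genes. The partners include Skp1, Cul1 and Rbx1, the other subunits of the Fbxl5 ubiquitin ligase, at 6.96 ± 1.66, 20.6 ± 5.86 and 18.7 ± 2.87. At a start listed within the gene Skp1 had a mean of 12.6. Herc2, a ubiquitin ligase for Ncoa4, had 10.6 ± 0.0422, and Tax1bp1, an autophagy receptor that works with Ncoa4, had 15.5 ± 0.377. Of the iron-sulphur cluster factors, Ciao1 had 12.7 ± 2.27, Ciao2b 14.9 ± 1.42 and Ciao3 11.9 ± 1.97. Glrx3 and Bola2, which form an iron-sulphur chaperone complex, had 15.6 ± 5.30 and 12.3 ± 3.52. The iron enzymes Egln1, a prolyl hydroxylase, and Dohh, a deoxyhypusine hydroxylase, had 20.3 ± 5.73 and 8.81 ± 1.66.

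Of 6 genes whose transcripts carry an iron-responsive element outside ferritin, 4 were marked at the outer 5' end, beside 47.1% of all protein-coding genes. The erythroid haem enzyme Alas2 had 20.9 in replicate 1 and 15.0 in replicate 2, and the transferrin receptor Tfrc had 18.7 and 13.1. The iron exporter Slc40a1 had 11.6 and 12.8, and the iron importer Slc11a2 had 9.84 and 10.9. Cdc14a, a phosphatase, was marked only at a listed start, at 12.5 and 14.1, and Epas1, a hypoxia-inducible factor, was not marked. The median domain of these marked genes was 4764.25 bp. Tfrc had the widest, 5432 and 5181 bp, wider than that of each of the 8 genes at its outer 5' end.

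**Figure D3:**
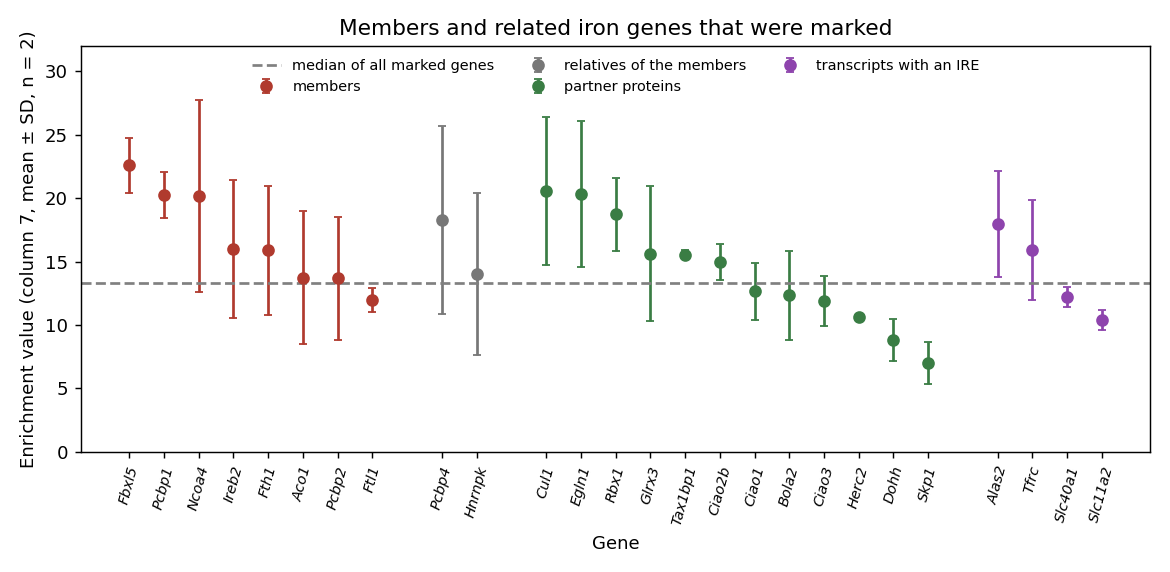
Mean enrichment value (column 7, scale not stated) of the 8 genes at any listed start and of the related genes marked at their outer 5' end. Bars are the SD of 2 replicates and the dashed line is the median of all genes marked at a listed start. The lists overlap in range, from 12.0 for Ftl1 to 22.6 for Fbxl5 and from 6.96 for Skp1 to 20.6 for Cul1 among the partners.

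The cell type was checked against defining genes of several lineages. Of 10 erythroid genes 8 were marked at the outer 5' end and Gata1 at a listed start, whereas none of 5 myeloid, 3 B cell and 3 T cell genes was. Of 3 fibroblast genes, Col1a1 was marked, with a mean value of 5.17. Hbb-bs had no peak at its start, and how reads with several matches were treated there is not known. Replicate 1 had 48026 peaks and replicate 2 had 46950 on the chromosomes used. The files hold no read counts, so depth is unknown, and all errors given come from 2 replicates.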

How the data were processed

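H3K4me3 ChIP-seq peaks of 2 replicates of 1 group were used. Per the notes deposited with the files, the authors called peaks on mm10 per replicate, on pooled alignments and as a replicated set, and deposited an older set on mm9. Aligner, peak caller, threshold and read depth: not given in the sources used here. For each peak, the deposited signal value (column 7) has no stated scale and serves as the enrichment value. Deposited p-values and q-values are on a −log10 scale. The deposited summit is a position and not a score.

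Gene positions came from RefSeq GRCm38.p6, strand from its promoter table or, by symbol, from GENCODE M1, which left out 351 of 21887 genes. A gene was marked when its outer 5' end ± 1000 bp had a peak of each replicate, with 1 shared bp enough. The enrichment value is the highest in that window and the domain joins neighbouring peaks when 1000 bp or less lies between them, the widest being kept. With 1 group, no test between groups was made and no p-value was computed. RefSeq starts were placed in NCBIM37 by an exact match of their 300 bases. Promoter sequences were found for 7 of the 8 genes. The genes and lists were chosen with earlier results of these data known. Named are the 8 genes, every gene of the 3 lists but 1 that is not reported here or counted, genes whose start lies in a member's domain and the 3 marked genes nearest to Fth1 and to Ftl1; other genes were named after their values were seen. The list of partners holds 13 names, of which Skp1a is an older name of Skp1. Alternatives were other windows, q-value limits, gaps, peak sets, starts and each replicate left out. Joining and marking were tested on simulated peaks. Python 3.11.15, numpy 2.4.6, pandas 2.3.3 and matplotlib 3.10.9 were used.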

Additional observations from a re-analysis of the deposited data

How the results depend on the processing

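The count of 7 marked genes was 7 or 8 under every alternative tried except the demand that a peak cover the 5' end itself, which left 1. The other counts stayed within 1.5 times their reported values under all alternatives run, with 17 to 19 of the 28 related genes marked and upstream peaks at 4 to 7 of 8 genes. The median enrichment value of the marked genes, 13.7, was 15.9 at any listed start, which was chosen after seeing the data, 11.4 when the nearest peak was used and 10.7 when the signal was averaged over the window. On the scale of percentiles among marked genes the median was 55.4. With 1 replicate left out in turn it ranged from 14.8 to 17.1. The median domain width of 2829.5 bp was 2415.5 bp with a minimum −log10 q of 2 or of 5 and 1707.5 bp with no gaps joined. Of 154 values of single genes under alternatives, 33 moved by more than the SD of the replicates and 121 did not. The 121 include 14 values without replicate 1 and 14 without replicate 2, which could not move by this measure. With 2 replicates, each always lies within the SD of their mean. The value of Ireb2 was 3.33 when averaged over the window and its width 584.5 bp with no gaps joined. Ftl1 fell to 4.25 and Pcbp2 to 3.79 when the nearest peak was used, because small upstream peaks lie nearer to their starts than the strong downstream ones. No paired analysis was possible because the series has 1 group. The depth of the replicates is unknown, so weak or missing peaks, such as those at Epas1, cannot be told from low coverage.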

Other observations

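The erythroid genes used to check the cell type ranged widely in enrichment value. The membrane skeleton gene Sptb had 28.8 in replicate 1 and 26.7 in replicate 2, and the transcription factor Klf1 had 20.7 and 21.3. The globin gene Hba-a1 had 5.61 and 4.25, and the anion exchanger Slc4a1 had 3.97 and 4.51. Both lay below each of the 8 iron genes. The sources used here do not say how reads with several matches were treated, so low values at globin genes were not interpreted.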
